A study of Mus musculus with 8 samples.

Results

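The nuclei described here are neutrophils and their progenitors in the mouse liver, taken from a single-nucleus RNA sequencing study of diet and liver cancer. They were chosen by their own RNA, counted in unique molecular identifiers (UMIs, each marking 1 captured RNA molecule). A barcode, the droplet tag that stands for 1 nucleus, had to have at least 300 detected genes. It was called mature with at least 4 UMIs over S100a8, S100a9, Csf3r, Cxcr2 and Retnlg from at least 2 of these genes, and progenitor with at least 2 UMIs over Mpo, Elane, Prtn3 and Ctsg. Barcodes with more than 1 UMI over Stab2, Reln, Pkhd1 and Clec4f, genes of endothelial cells, stellate cells, bile duct cells and Kupffer cells, were barred. By this rule 1230 of the 59446 barcodes with at least 300 genes in 7 libraries were members (2.07%): 921 met the mature criterion and 358 the progenitor criterion, of which 49 met both. An eighth library, RD tumour 1, which holds exactly 20000 barcodes, was left out by the rule. Levels given below for mature nuclei are over the 872 that met the mature criterion alone, and levels for progenitors are over all 358.

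The livers came from 8 male DIAMOND mice, a cross that the labels name 129A1/SvIm and C57BL/6J, with 1 library per mouse. Diets began, per the series text, at 2 months of age. WD tumour (n = 3) was kept on a Western diet, high in fat with fructose and glucose in the water, for 48 weeks and developed hepatocellular carcinoma. RD tumour (n = 2, of which RD tumour 2 was used) and RD no tumour (n = 3) were returned to standard chow after 36 weeks of the Western diet, and did or did not develop carcinoma. The labels give 48 weeks as the age at the end of the study, which disagrees with the series text. All mice had thus been on the Western diet, and no group was fed chow throughout. The labels do not say whether a frozen piece held tumour.

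Neutrophils are made in the bone marrow through a fixed order of stages. Dividing promyelocytes make the primary granule proteins, among them the enzyme myeloperoxidase (Mpo) and the serine proteases elastase, proteinase 3 and cathepsin G (Elane, Prtn3, Ctsg). Myelocytes and metamyelocytes make the specific granule proteins lactoferrin, neutrophilic granule protein and cathelicidin (Ltf, Ngp, Camp), later stages the gelatinase granule enzymes (Mmp8, Mmp9), and segmented neutrophils carry the receptors Csf3r and Cxcr2, through which they respond to G-CSF and to CXC chemokines. In the liver, neutrophils reach the sinusoids from the blood, and blood cell production outside the marrow can occur there. Neutrophil nuclei hold little RNA, so they are among the types most easily missed in nuclear sequencing.

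The granule genes lie in a few places in the genome. Elane (chr10:79886247-79888215, + strand) and Prtn3 (chr10:79874476-79883174, + strand) are neighbours with 3072 bases between them (GENCODE M21 models, build GRCm38). Mpo is at chr11:87793581-87804413 (+ strand) and Ctsg at chr14:56099881-56102574 (- strand). Camp, Ngp and Ltf lie on chromosome 9, with 570129 bases from Camp to Ngp and 596258 from Ngp to Ltf. S100a8 and S100a9, on chromosome 3, are separated by 22596 bases.

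The sequences before 6 of these genes are shown: the primary granule genes, which admit progenitors, and Ltf and Ngp, which neither criterion uses. Ltf, Ngp and Camp divide the mature nuclei below and do not mark that class as a whole. In RD no tumour 1, 282 of 715 mature nuclei had no UMI of these 3 genes. The 6 stretches are those that held a match of the motifs searched, and Camp, without a match, is not printed. The choice thus followed the search, and the difference in motifs between the 2 sets was not tested. RefSeq promoters (GRCm38.p6) were found by symbol for all 7 genes looked up, and the 250 bases before each start were searched on both strands for GAGGAA, a PU box core bound by ETS factors such as PU.1, and for TTGCNNAA, a C/EBP core. The printed stretches end before the first GENCODE exon, run 5′ to 3′ along the gene's strand, and carry the matches in capitals. Both matches of Ltf are on the other strand and so read as the reverse complement of the letters searched. The Prtn3 stretch lies in an intron of the longer GENCODE model. They are chr11:87793534-87793580 (+) for Mpo, chr10:79886062-79886246 (+) for Elane, chr10:79879417-79879613 (+) for Prtn3, chr14:56102575-56102824 (-) for Ctsg, chr9:111019042-111019270 (+) for Ltf and chr9:110419558-110419746 (+) for Ngp.
Mpo: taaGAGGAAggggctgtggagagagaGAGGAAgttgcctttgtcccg
Elane: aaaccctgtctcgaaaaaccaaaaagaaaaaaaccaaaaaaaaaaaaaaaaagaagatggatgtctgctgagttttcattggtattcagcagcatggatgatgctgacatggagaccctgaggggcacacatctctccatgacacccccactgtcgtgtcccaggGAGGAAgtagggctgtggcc
Prtn3: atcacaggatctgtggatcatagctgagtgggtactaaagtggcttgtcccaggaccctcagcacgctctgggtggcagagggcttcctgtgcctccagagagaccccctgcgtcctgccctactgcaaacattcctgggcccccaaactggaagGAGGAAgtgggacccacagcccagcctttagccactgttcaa
Ctsg: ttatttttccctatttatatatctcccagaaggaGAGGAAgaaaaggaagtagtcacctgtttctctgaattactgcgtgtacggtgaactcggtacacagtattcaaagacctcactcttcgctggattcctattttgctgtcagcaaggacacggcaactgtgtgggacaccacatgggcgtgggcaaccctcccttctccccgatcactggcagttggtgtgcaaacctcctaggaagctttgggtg
Ltf: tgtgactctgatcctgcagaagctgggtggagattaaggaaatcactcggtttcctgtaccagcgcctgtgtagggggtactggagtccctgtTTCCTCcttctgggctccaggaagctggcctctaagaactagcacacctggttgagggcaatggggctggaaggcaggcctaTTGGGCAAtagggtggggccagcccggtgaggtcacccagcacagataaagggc
Ngp: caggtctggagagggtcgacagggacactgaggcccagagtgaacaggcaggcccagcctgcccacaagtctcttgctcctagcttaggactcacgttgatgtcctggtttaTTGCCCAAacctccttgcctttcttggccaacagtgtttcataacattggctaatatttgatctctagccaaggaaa

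The PU box letters were in 4 of 4 primary granule genes and in Ltf, and in 23.3% of the 32851 RefSeq promoters in the table over the same length. The C/EBP letters were in Ltf and Ngp and in none of the 4 primary granule genes, against 9.56% of all promoters. Ngp holds a further C/EBP match beyond its printed stretch, and Camp held neither motif. No match of one motif overlapped one of the other. A match is a description of the letters, not a bound site.

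The 7 libraries held 17948627 to 32537971 UMIs each, with a median of 1120 to 2656 UMIs per barcode. Of their 60575 barcodes, 836 (1.38%) had a tag also seen in another library, and no tag belonged to a member in both. RD no tumour 1 stands apart: it held 83.0% of the mature nuclei and 86.3% of the progenitors, and its other barcodes also carried more neutrophil RNA. Other barcodes are all non-members with at least 300 genes, barred barcodes among them. In RD no tumour 1 they include 260 barred barcodes that met the mature criterion and 116 that met the progenitor criterion. S100a8 stood at 123 CPM (UMIs of the gene per 1000000 UMIs of the set) in the non-member barcodes of RD no tumour 1, against 4.14 to 43.5 CPM in those of the other 6 libraries. Mpo stood at 14.1 CPM there, against 0.0622 to 3.01 CPM. Results are therefore given with and without this mouse.

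Mature nuclei were most frequent in RD no tumour 1, where 764 nuclei made up 7.44% of the barcodes (exact 95% binomial interval 6.94% to 7.96%). These intervals, and the Poisson intervals on levels, cover counting error only. RD tumour 2 followed with 67 nuclei (0.646%, 0.501% to 0.819%) and WD tumour 2 with 33 (0.467%, 0.322% to 0.655%). The remaining 4 mice had 9 to 22 mature nuclei: 15 in RD no tumour 2 (0.248%), 22 in RD no tumour 3 (0.213%), 11 in WD tumour 1 (0.170%) and 9 in WD tumour 3 (0.101%). At the deposited depth the order after the first mouse does not follow diet or tumour, and the intervals of RD no tumour 2, RD no tumour 3 and WD tumour 1 overlap.

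Barcodes that met the progenitor criterion were concentrated in 2 mice. RD no tumour 1 had 309 (3.01%, interval 2.69% to 3.36%) and WD tumour 2 had 32 (0.453%, 0.310% to 0.639%). The other 5 mice had 17 together: 8 in WD tumour 1 (0.124%), 4 in WD tumour 3 (0.0451%), 3 in RD tumour 2 (0.0289%), 2 in RD no tumour 2 (0.0331%) and none in RD no tumour 3, where 0 of 10351 barcodes allows a share of up to 0.0290% by a floor of 3 counts (exact upper limit 0.0356%). For each progenitor there were 22.3 mature nuclei in RD tumour 2, 2.47 in RD no tumour 1 and 1.03 in WD tumour 2. All 49 nuclei that met both criteria were in RD no tumour 1.

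**Figure D1:**
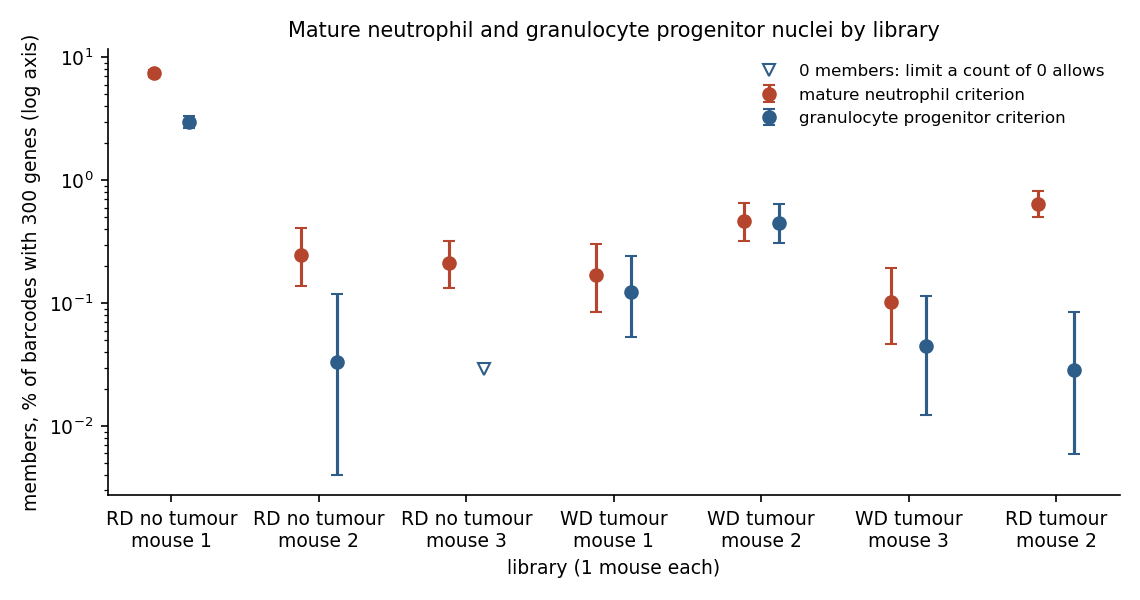
Share of barcodes with at least 300 genes that met the mature or the progenitor criterion in each of the 7 libraries (log axis, percent; bars are exact 95% binomial intervals of counting error, and the open triangle is the limit that a count of 0 allows). RD no tumour 1 lies above all other mice for both classes, and RD no tumour 3 has no progenitor.

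The spread of mature shares among the RD no tumour mice was wider than the distance between the groups. Over nuclei that met the mature criterion alone, RD no tumour mice had a share of 2.47 ± 3.88% (SD, n = 3), and WD tumour mice one of 0.246 ± 0.194% (SD, n = 3). Without RD no tumour 1, the RD no tumour share was 0.230 ± 0.0251% (SD, n = 2). On the log2 scale WD tumour minus RD no tumour was -1.81 with all 6 mice (two-sided exact permutation test, p = 0.4, adjusted p = 0.8 over the 2 share tests), and -0.18 without RD no tumour 1. Progenitors made up 1.01 ± 1.73% of barcodes in RD no tumour mice and 0.207 ± 0.216% in WD tumour mice (SD, n = 3 each), a log2 difference of 0.78 (exact permutation p = 0.8, adjusted p = 0.8). The mean percents go the other way from this difference, because the log2 value of RD no tumour 3, with 0 progenitors, rests on the 0.5 added to its count. Without RD no tumour 1 the difference was 3.36, and without RD no tumour 3, the mouse with no progenitor, it was -1.28. Neither test passed, and 3 mice against 3 cannot give a p below 0.1.

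With each barcode thinned to 500 UMIs in a single random draw, the mature shares of the reversed diet mice lay above those of the WD tumour mice. They were 2.68% in RD no tumour 1, 0.347% in RD tumour 2, 0.132% in RD no tumour 2 and, lowest of the reversed diet, 0.126% in RD no tumour 3, against 0.0774% in WD tumour 1, 0.0849% in WD tumour 2 and 0.0564% in WD tumour 3. All 3 RD no tumour mice lay above all 3 WD tumour mice, with a log2 difference of -2.22 (exact permutation p = 0.1, the smallest that 3 against 3 allows). Apart from RD no tumour 1 and RD tumour 2, these shares rest on 5 to 13 nuclei per mouse. The thinned setting was 1 of 15 alternatives and gave the lowest p of them. At the deposited depth WD tumour 2 (0.467%) lay above RD no tumour 2 (0.248%) and RD no tumour 3 (0.213%). With at least 6 UMIs from 3 of the mature genes required, WD tumour 2 (0.127%) lay above RD no tumour 3 (0.0676%). RD no tumour and WD tumour differ in both diet and tumour, so the part of each cannot be told apart. RD tumour, with 1 usable library, entered no test.

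The labels were checked on genes that the rule did not use. The 7 other genes of the mature neutrophil marker list were the gelatinase granule proteases Mmp9 and Mmp8, the surface protein Ly6g, the decoy receptor Il1r2, Stfa2l1, Trem1 and the histidine decarboxylase Hdc, and their UMIs were summed. In mature nuclei they stood at 490 CPM in RD no tumour 1, 864 in RD no tumour 2, 355 in RD no tumour 3, 1328 in WD tumour 1, 190 in WD tumour 2, 1579 in WD tumour 3 and 493 in RD tumour 2. In the other barcodes the same sum was 80.1 CPM in RD no tumour 1 and 18.5 to 33.6 CPM in the other 6 libraries, so mature nuclei were higher in 7 of 7 libraries. WD tumour 2 had the lowest level and the smallest distance. Outside RD no tumour 1 these sums rest on few molecules, 16 to 86 UMIs per library, and not on all 7 genes. Ly6g and Stfa2l1 had no UMI in the mature nuclei of RD no tumour 2, RD no tumour 3 and WD tumour 3. Trem1 also had none in RD no tumour 3, and Stfa2l1 none in WD tumour 1 and WD tumour 2. All 7 genes were detected in RD no tumour 1 and RD tumour 2.

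**Figure D2:**
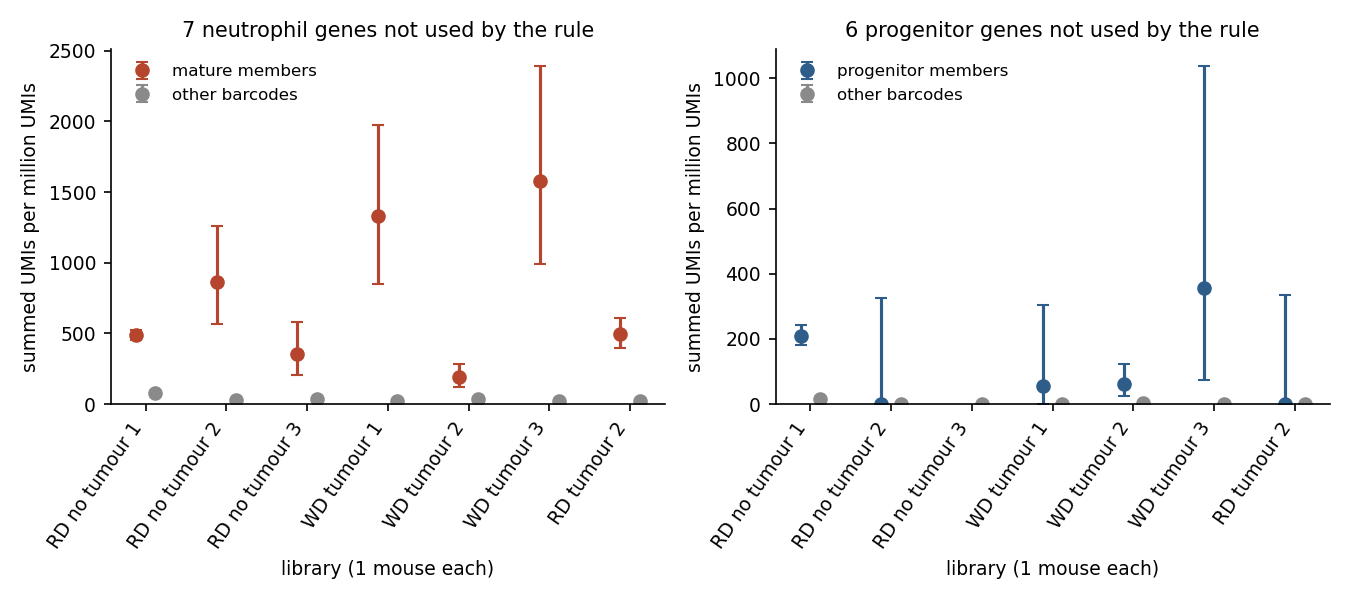
Summed level (CPM) of 7 neutrophil genes in mature nuclei and of 6 progenitor genes in progenitor nuclei, none used by the rule, beside the other barcodes of the same library (bars are exact Poisson intervals of counting error). Mature nuclei lie above the other barcodes in 7 of 7 libraries, and progenitors do in RD no tumour 1, WD tumour 1, WD tumour 2 and WD tumour 3.

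The progenitor label is carried mainly by RD no tumour 1. The 6 genes summed outside the rule were Ms4a3 and Prss57, which mark granulocyte and monocyte progenitors, the transcription factors Cebpe, Gfi1 and Myb, and the ficolin Fcnb. They stood at 210 CPM (186 UMIs) in the progenitors of RD no tumour 1, against 15.6 CPM in its other barcodes. WD tumour 2 had 60.0 CPM from 7 UMIs (other barcodes 3.10 CPM), WD tumour 3 had 355 CPM from 3 UMIs and WD tumour 1 had 54.3 CPM from 1 UMI. The progenitors of RD no tumour 2 and RD tumour 2 had no UMI of these genes. For the 17 progenitors outside RD no tumour 1 and WD tumour 2, the label thus rests almost wholly on the 4 genes of the rule.

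The evidence that admitted each nucleus varied, and is given as a description. Of the RD no tumour 1 nuclei, 221 of 764 mature nuclei had S100a8 and S100a9 alone, the genes of the calprotectin subunits (28.9%); in the other 6 libraries it was 28 of 157 (17.8%). Csf3r was detected in 351 of the 764 and in 110 of the 157. Among progenitors, 88 of 309 in RD no tumour 1 were admitted by 1 gene, 51 of them by Prtn3 alone, while 148 had 2 of the 4 genes, 33 had 3 and 40 had all 4. In the other 6 libraries 30 of 49 progenitors had 1 gene (61.2%), 21 of them Prtn3 alone, and none had all 4. Prtn3 was also the most widely spread of the 4 genes, at 37.6 CPM in the other barcodes of RD no tumour 1.

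At the edge of the rule, values changed in steps. Over 7 libraries, the 7 neutrophil genes outside the rule stood at 179 CPM in the 201 barcodes with exactly 4 UMIs of the mature genes, and at 123 CPM in the 430 barcodes just outside, with 3 UMIs from at least 2 genes. They stood at 599 CPM in the 671 with 5 or more. For progenitors, the 6 genes outside the rule stood at 55.4 CPM in the 238 nuclei with exactly 2 UMIs, 10.0 CPM in the 1784 barcodes with 1 UMI, and 457 CPM in the 120 nuclei with 3 or more. The lowest admitted nuclei thus lay nearer to those just outside than to the rest of the members in both classes.

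RNA free in the suspension can give UMIs in nuclei that do not express a gene, so the criteria were also counted in barred barcodes, which carry RNA of other liver cell types. Of barred barcodes in RD no tumour 1, 10.6% met the mature criterion (median 2258 UMIs) against 9.78% of those not barred (median 1766 UMIs). At the deposited depth the mature share in this mouse was therefore not above that of barred barcodes. With each barcode thinned to 500 UMIs, none being shallower, the shares were 0.446% of barred barcodes and 3.55% of those not barred. Pooled over the other 6 libraries, the mature criterion was met at the deposited depth by 1.04% of barred barcodes and 0.428% of those not barred. There too the share was not above that of barred barcodes. The thinned shares of these 6 libraries were 0.0320% and 0.199%. At equal depth the mature criterion was thus met more often outside the barred barcodes in both settings.

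Progenitors were closer to this background. The progenitor criterion in RD no tumour 1 was met by 4.71% of barred barcodes and 3.96% of those not barred, and by 0.487% and 1.04% at 500 UMIs. In the other 6 libraries pooled, it was met at the deposited depth by 0.280% of barred barcodes and 0.134% of those not barred. The thinned shares there were 0.0240% (3 barcodes) and 0.0327% (12 barcodes). Progenitor shares outside RD no tumour 1 were therefore not distinguishable from background by these 4 genes at this depth.

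**Figure D3:**
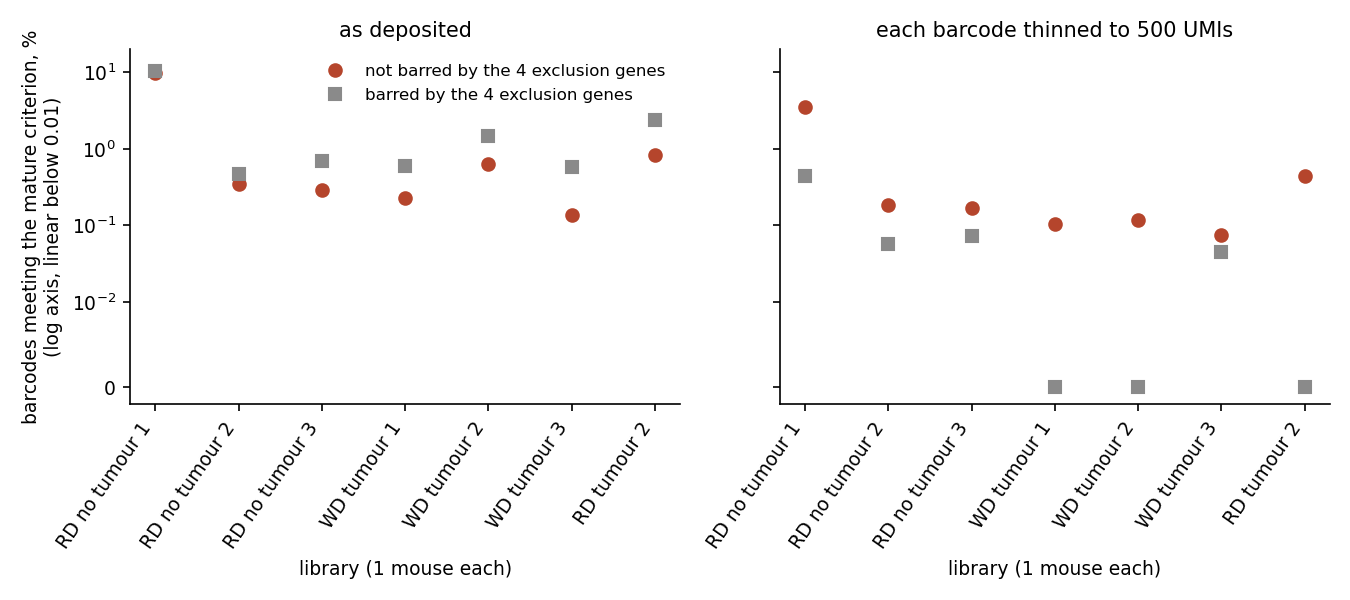
Percent of barcodes meeting the mature criterion among barcodes with at least 2 UMIs of Stab2, Reln, Pkhd1 and Clec4f (barred) and among those not barred, per library, as deposited and with each barcode thinned to 500 UMIs (log axis, linear near 0). In RD no tumour 1 the shares are 10.6% and 9.78% as deposited, and 0.446% and 3.55% after thinning.

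Mature nuclei, here counting the 49 that met both criteria, held fewer UMIs than the other barcodes of their library in 6 of 7 mice. Their median was 1347 UMIs against 1953 in RD no tumour 1, 763.5 against 2184 in RD no tumour 3 and 822 against 1122 in RD tumour 2. WD tumour 2 was the exception, with 2654 against 1821. Progenitors had a median of 2169 UMIs in RD no tumour 1, above its mature nuclei. They were also above them in RD no tumour 2 (5690.5 against 1294), RD tumour 2 (1622 against 822) and WD tumour 3 (2017 against 891). The value of RD no tumour 2 rests on 2 progenitors, both called doublets. Progenitors were below mature nuclei in WD tumour 2, at 2550.5, and in WD tumour 1, at 1270 against 1410. Ptprc, the pan-leukocyte gene CD45, was detected in 62.2% of mature nuclei, 47.2% of progenitors and 37.0% of other barcodes of RD no tumour 1. The same shares were 75.8%, 40.6% and 37.1% in WD tumour 2. In the other 5 libraries, 62.7% to 88.9% of mature nuclei had a Ptprc UMI, against 14.4% to 23.0% of other barcodes.

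The gene programme of mature nuclei was read panel by panel against the other barcodes of the same library, counting panel genes with at least 10 UMIs in members that were over 4-fold higher. The contrast is the one the rule made, so the counts carry no test. Over all genes with 10 UMIs, 1.82% passed this fold in RD no tumour 1 and 4.37% in the other 6 libraries pooled, where the other barcodes hold less neutrophil RNA. The comparisons of RD no tumour 1 and of the other 6 share no nuclei. The mature nuclei of RD no tumour 1 held 1515757 of the 1924826 UMIs of all mature nuclei. The floor of 10 UMIs therefore admits genes at lower levels in this mouse than in the other 6 libraries. Shares and medians over the measured genes thus rest on different genes in the 2 settings.

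Specific granule genes were prominent, with 10 of 14 over 4-fold in RD no tumour 1 and 7 of 11 in the other 6 libraries. Ltf, the iron-binding lactoferrin, stood at 648 CPM against 36.1 in RD no tumour 1. Chil3, a chitinase-like protein, stood at 953 against 163 CPM there and at 183 against 6.33 in the other 6 libraries. Lcn2, which binds bacterial siderophores, was an exception: at 2573 against 1713 CPM in RD no tumour 1 it was also abundant in the other barcodes, and in WD tumour 2 it was lower in mature nuclei (680 against 820 CPM). The median log2 ratio of the panel was 2.49 in RD no tumour 1 and 4.48 in the other 6 libraries, against -0.08 and 0.08 over all genes.

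Gelatinase granule genes gave 5 of 7 over 4-fold in RD no tumour 1 and 6 of 7 in the other 6 libraries. Mmp8, the neutrophil collagenase, stood at 264 CPM in RD no tumour 1, 288 in RD no tumour 2, 66.7 in RD no tumour 3, 387 in WD tumour 1, 63.3 in WD tumour 2, 574 in WD tumour 3 and 138 in RD tumour 2. Mmp9, gelatinase B, followed at 79.8, 160, 22.2, 332, 31.6, 431 and 138 CPM in the same order. For both genes WD tumour 1 and WD tumour 3 were highest, and RD no tumour 3 and WD tumour 2 lowest. Padi4, the enzyme that citrullinates histones in extracellular trap formation, stood at 162 CPM against 4.82 in RD no tumour 1, and was listed at 0 among the 9 mature nuclei of WD tumour 3.

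Surface receptors passed this fold in a smaller share in RD no tumour 1 than in the other 6 libraries. Of the receptor genes outside the rule, 8 of 19 were over 4-fold in RD no tumour 1 and 15 of 16 in the other 6 libraries, with median log2 ratios of 1.88 and 3.89. Summed, these receptors stood at 1133 CPM in mature nuclei of RD no tumour 1, 1792 in RD no tumour 2, 1355 in RD no tumour 3, 2324 in WD tumour 1, 1115 in WD tumour 2, 2225 in WD tumour 3 and 849 in RD tumour 2. The other barcodes had 393 CPM in RD no tumour 1 and 148 CPM in the other 6 libraries pooled. RD tumour 2, WD tumour 2 and RD no tumour 1 were thus lowest in their mature nuclei. Csf3r, the G-CSF receptor, is a rule gene, so its levels are partly set by how nuclei were admitted and are given as a description. It stood at 409.7 CPM in RD no tumour 1, 2144 in RD no tumour 2, 1289 in RD no tumour 3, 1162 in WD tumour 1, 411 in WD tumour 2, 2154 in WD tumour 3 and 568 in RD tumour 2.

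Inflammatory products were low in RD no tumour 1. None of the 9 measured genes passed 4-fold there, against 4 of 5 in the other 6 libraries, Il1b, Cxcl2, Nlrp3 and Acod1. Il1b, the cytokine interleukin-1 beta, stood at 89.7 CPM in mature nuclei of RD no tumour 1 (other barcodes 43.2) and at 222 CPM in those of the other 6 (other barcodes 16.0). By mouse its level was 320 in RD no tumour 2, 267 in RD no tumour 3, 609 in WD tumour 1, 87.0 in WD tumour 2, 215 in WD tumour 3 and 252 in RD tumour 2. Acod1, which makes itaconate, stood at 7.92 CPM against 7.48 in RD no tumour 1 and at 53.8 against 1.3 in the other 6. The summed panel stood at 218 CPM in RD no tumour 1 and at 356 to 1107 CPM in the other mice, the lowest being RD tumour 2 and the highest WD tumour 1.

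The remaining panels were mixed. Ncf1, a subunit of the NADPH oxidase, the enzyme of the respiratory burst, stood at 177 CPM against 26.2 in RD no tumour 1. Of genes described in tumour-associated neutrophils, 1 of 7 passed in RD no tumour 1 (Olr1) and 1 of 5 in the others (Cd14). No interferon-stimulated gene passed, 0 of 11 and 0 of 5, with medians of -0.23 and 0.44. No stem and early progenitor gene passed either, 0 of 6 and 0 of 4.

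Among all genes outside the rule, those with the largest pooled ratio to other barcodes were led by genes other than the usual markers. Ranked over 7 libraries among 9919 eligible genes, the first 20 included Cpa6, a carboxypeptidase, Abca13, a large ABC transporter, Slfn4, a Schlafen gene of myeloid cells, the transporter gene Slco4c1, Scrg1, the beta-defensin genes Defb40 and Defb37, Padi4 and Ltf. RD no tumour 1 gave 78.7% of the UMIs of mature nuclei but 15.4% of those of other barcodes, so a gene high throughout this mouse can rank high. Cpa6 stood in RD no tumour 1 at 689 CPM (1044 UMIs) against 22.1 in other barcodes, Abca13 at 301 against 10.4 and Slfn4 at 212 against 6.21. In the other 6 libraries the same genes stood at 181 against 1.55, 115 against 0.71 and 166 against 1.06 CPM.

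Granule RNA separated mature nuclei within and between mice. Ltf, Ngp and Camp together stood at 1794 CPM in RD no tumour 1, 3375 in WD tumour 1, 1005 in WD tumour 3, 723 in RD tumour 2, 601 in WD tumour 2 and, from 2 UMIs, 64.0 in RD no tumour 2, and no UMI was found in the 22 mature nuclei of RD no tumour 3. Nuclei with 2 or more UMIs of the 3 genes numbered 297 of 715 mature nuclei of RD no tumour 1 (41.5%, 37.9% to 45.2%), 5 of 11 in WD tumour 1, 7 of 33 in WD tumour 2, 2 of 9 in WD tumour 3, 10 of 67 in RD tumour 2 (14.9%, 7.40% to 25.7%), 1 of 15 in RD no tumour 2 and 0 of 22 in RD no tumour 3 (up to 15.4%). Over the other 6 libraries it was 25 of 157 (15.9%). Among other barcodes the same share was 8.39% in RD no tumour 1 and 0.0677% to 1.13% elsewhere. Single nuclei reached 99 UMIs in RD no tumour 1, 47 in RD tumour 2, 36 in WD tumour 2 and 25 in WD tumour 1. RD no tumour 2 and 3 thus had mature nuclei nearly free of Ltf, Ngp and Camp, and RD no tumour 1, of the same group, had the largest number with it.

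**Figure D4:**
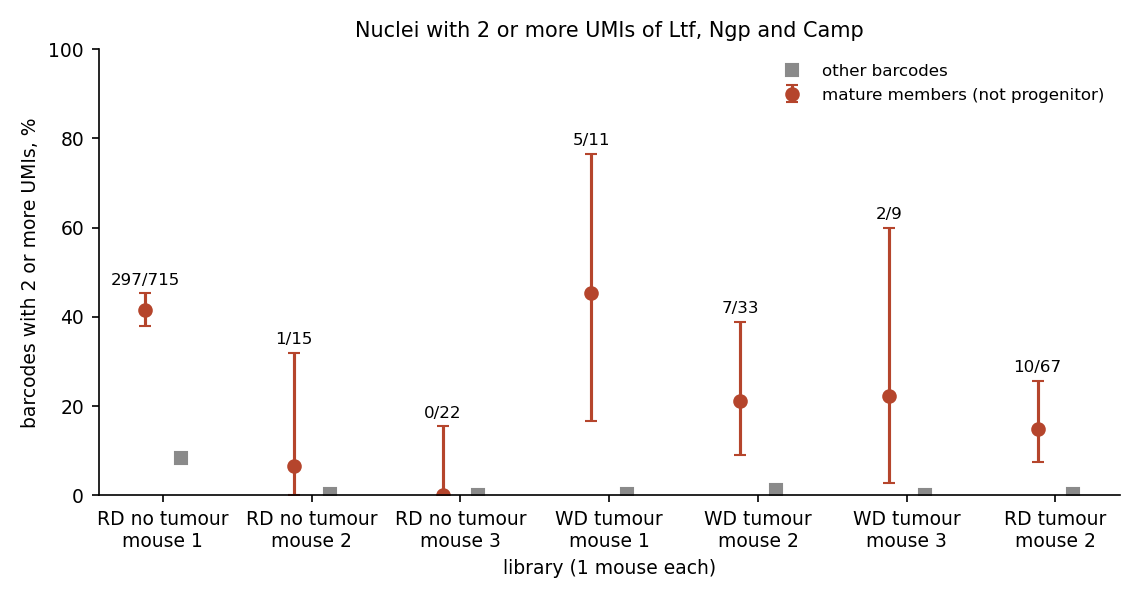
Ltf, Ngp and Camp in mature nuclei of each library: the share of nuclei with at least 2 UMIs of the 3 genes (exact 95% binomial intervals of counting error), beside the other barcodes. RD no tumour 1 stands at 41.5%, RD no tumour 2 and 3 at 1 of 15 and 0 of 22 nuclei.

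Mature nuclei of RD no tumour 1 with and without granule RNA differed in other genes while their depth was alike, with a median of 1228 UMIs in the 297 nuclei with at least 2 granule UMIs and 1352 in the 282 with none. Cpa6 stood at 1563 against 51.7 CPM, Abca13 at 599 against 76.0, Padi4 at 246 against 92.2 and Anxa1, annexin A1, at 366 against 82.5. Il1b and Clec4d, a C-type lectin receptor, went the other way, at 52.0 against 102 CPM and 20.5 against 50.1. The granule-rich nuclei also held more cell cycle RNA, at 807 against 399 CPM for the panel, and Top2a, the S and G2 phase topoisomerase, at 151 against 80.9.

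In the other 6 libraries the same split went the same way for these genes, in 25 and 122 nuclei. Cpa6 stood at 904 CPM (66 UMIs) in the granule-rich nuclei and had no UMI in those without granule RNA. Abca13 stood at 480 against 27.4 CPM, Il1b at 13.7 (1 UMI) against 291, and Clec4d at 41.1 (3 UMIs) against 130. The pattern was therefore present outside the mouse that held most of the nuclei, although the 6 libraries are pooled here and contribute unequal numbers. The 7 neutrophil genes outside the rule were high on both sides, at 740 CPM in the granule-rich nuclei and 487 in those without.

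In the progenitors of RD no tumour 1, the cell cycle panel had the most genes over 4-fold higher than in other barcodes. Over 4-fold were 2 of 4 measured primary granule genes outside the rule (Ms4a3 and Cst7), 2 of 12 transcription factors (Gfi1 and Myb), 2 of 13 specific granule genes (Fcnb and Ltb4r1) and 9 of 19 cell cycle genes, against 1.34% of all genes. Of the 12 transcription factors, 2 also passed in the mature nuclei of this mouse (Cebpe and Myb). All 19 cell cycle genes were higher than in other barcodes, with a median log2 ratio of 1.95. None of 11 interferon-stimulated genes passed, and 1 of the 11 was higher. None of 8 stem and early progenitor genes passed. In the other 6 libraries few panel genes reached 10 UMIs. Of the 3939 genes of any kind that did, 0.559% were over 4-fold, among them the cell cycle genes Top2a and Diaph3 and the integrin gene Itgam.

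The levels of the rule's own 4 genes are given as a description, since they admitted these nuclei, and outside RD no tumour 1 and WD tumour 2 they rest on 2 to 8 nuclei per mouse. Mpo stood at 367 CPM in the progenitors of RD no tumour 1, 217 in WD tumour 1, 206 in WD tumour 2, 828 in WD tumour 3 and 90.3 in RD tumour 2, with none in RD no tumour 2. Elane stood at 276 CPM in RD no tumour 1, 217 in WD tumour 1 and 94.3 in WD tumour 2, and had no UMI in the other 3 mice with progenitors. Prtn3 stood at 521 CPM in RD no tumour 1 and at 176 to 435 in the others. Ctsg stood at 348 CPM in RD no tumour 1 and ranged from 94.3 in WD tumour 2 to 828 in WD tumour 3.

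The 6 progenitor genes outside the rule fell with the number of these 4 genes that a nucleus carried. Cell cycle genes and Cdk6 were highest with 3 or 4 genes, but were no lower with 1 than with 2. In RD no tumour 1 the 6 progenitor genes outside the rule stood at 630 CPM in the 73 nuclei with 3 or 4 of the genes, 111 in the 148 with 2 and 42.4 in the 88 with 1, at median depths of 2254, 2013 and 2251 UMIs. Ms4a3 stood at 244, 26.5 and 3.78 CPM in the same order, the last below the 5.50 CPM of other barcodes. Cell cycle genes stood at 2455, 527 and 613 CPM, against 293 in other barcodes. Myb stood at 171, 41.0 and 15.1 CPM and Cdk6, a kinase of the G1 phase, at 659, 176 and 208. In the 51 nuclei admitted by Prtn3 alone the 6 genes stood at 37.4 CPM, and in the 21 such nuclei of the other 6 libraries they had no UMI. The 73 nuclei with 3 or 4 genes held 129 of the 186 UMIs of the 6 genes in this mouse.

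**Figure D5:**
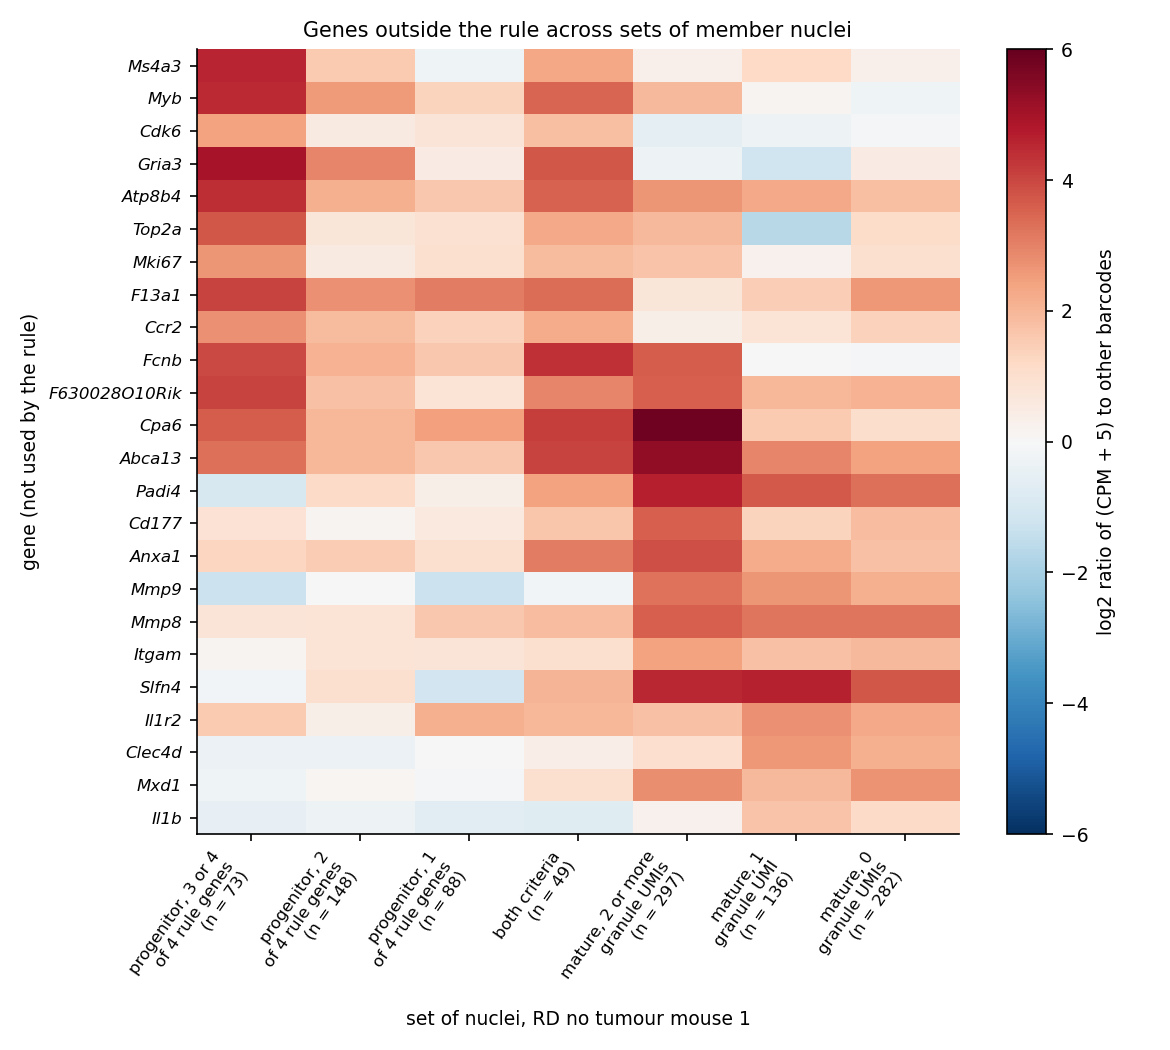
Level of 24 genes outside the rule in 7 sets of nuclei of RD no tumour 1, as log2 of the ratio of CPM + 5 to that of the other barcodes of this mouse (colour scale from -6 to 6). The 49 nuclei with both criteria are also in the progenitor sets. Ms4a3, Myb and Gria3 are highest in progenitors with 3 or 4 of the 4 genes, and Cpa6, Abca13 and Padi4 in mature nuclei with granule RNA.

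By rank, 20 genes outside the rule led the progenitors among 6901 eligible genes, among them Rab44, a large Rab GTPase of granulated cells, Myb, the glutamate receptor subunit gene Gria3, the flippase gene Atp8b4, F13a1, Tiam1, Ccr2 and Top2a. The ranking pools 7 libraries, and RD no tumour 1 gave 84.2% of the progenitors' UMIs but 15.4% of those of other barcodes. A gene high throughout this mouse can therefore rank high. Rab44 stood in RD no tumour 1 at 92.7 CPM against 3.85, Gria3 at 215 against 14.9, Atp8b4 at 415 against 47.8 and F13a1 at 438 against 41.7. In the other 6 libraries these stood at 18.1 against 0.45 (3 UMIs), 139 against 12.4, 175 against 20.4 and 90.4 against 5.19 CPM. 

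Some of the leading genes are shared with monocytes, which arise from a common progenitor. F13a1, coagulation factor XIII, and Ccr2, the receptor for monocyte chemokines, are markers of classical monocytes. Ccr2 stood at 171 CPM against 38.3 in other barcodes of RD no tumour 1, and at 54.2 (9 UMIs) against 9.96 in the other 6 libraries. Of the 309 progenitors in RD no tumour 1, 105 had a UMI of F13a1, Ly6c2, Ccr2 or Csf1r and none of the granulocyte genes Fcnb, Cebpe, Ltf, Ngp and Camp, 48 had a granulocyte gene alone, 60 had both and 96 neither. At least 1 UMI of the 4 monocyte genes was present in 53.4% of progenitors and 31.1% of other barcodes in this mouse (median 2169 and 1953 UMIs). Summed, the 4 genes stood at 1464 CPM in the nuclei with 3 or 4 protease genes, 658 with 2 and 666 with 1, against 232 in other barcodes. In WD tumour 2, 6 of 32 progenitors had a monocyte gene alone, none a granulocyte gene alone, 2 had both and 24 neither. A UMI of the 4 monocyte genes was no more frequent there in progenitors (25.0%) than in other barcodes (27.4%). The part of monocyte-lineage cells in this class was not tested.

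Cell cycle RNA was more frequent in progenitors than in mature nuclei in RD no tumour 1, and less frequent in WD tumour 1 and WD tumour 2. Median depths in RD no tumour 1 were 2169 UMIs in progenitors, 1347 in all 764 nuclei of the mature criterion and 1953 in other barcodes. At least 2 UMIs of the cell cycle panel were present there in 106 of 309 progenitors (34.3%), 115 of 715 mature nuclei (16.1%) and 11.6% of other barcodes. In WD tumour 2 it was 5 of 32 progenitors (15.6%), 10 of 33 mature nuclei (30.3%) and 19.3% of other barcodes, and in WD tumour 1 it was 1 of 8 and 2 of 11. For progenitors and mature nuclei it was 2 of 2 and 2 of 15 in RD no tumour 2, where both progenitors were called doublets. It was 2 of 4 and 0 of 9 in WD tumour 3, and 0 of 3 and 5 of 67 in RD tumour 2. These differences between classes were not tested. Over the other 6 libraries it was 10 of 49 (20.4%).

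The 49 nuclei that met both criteria held a higher sum of the 6 progenitor genes outside the rule than progenitors as a class. The sum stood at 337 CPM in them, against 210 in all progenitors of this mouse. Fcnb, which is also on the specific granule panel, made up 183 of the 337 CPM. Ms4a3 was lower in them than in progenitors with 3 or 4 protease genes. Its log2 ratio of CPM + 5 to other barcodes was 2.32 against 4.57. The 7 neutrophil genes stood at 178 CPM, between the 131 of progenitors and the 490 of mature nuclei. Fcnb stood at 183 CPM, the highest of the sets compared, with 137 in progenitors with 3 or 4 protease genes and 106 in granule-rich mature nuclei. Cpa6 stood at 474 CPM and Myb at 82.9. Their median depth was 2016 UMIs.

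Markers of other cell types were present in members. The median share of hepatocyte genes in the UMIs of a nucleus was 2.30% to 5.52% in mature nuclei over the 7 libraries, 2.21% to 4.25% in progenitors and 2.31% to 3.84% in other barcodes. Erythroid genes were highest in the 2 mice with the most barcodes meeting the progenitor criterion. In WD tumour 2 they stood at 34782 CPM in mature nuclei, 16109 in progenitors and 30390 in other barcodes, and in RD no tumour 1 at 7336, 5207 and 7740 CPM. The other barcodes of the remaining 5 mice had 1192 to 4770 CPM. Megakaryocyte genes stood at 35.9 CPM in the other barcodes of RD no tumour 1 and 24.0 in those of WD tumour 2, against 3.92 to 13.6 in the remaining 5. The 7-gene monocyte list stood at 1581 CPM in mature nuclei and 2107 in progenitors of RD no tumour 1, against 1365 in other barcodes, and its sum over the mature nuclei of the other mice ranged from 574 CPM in WD tumour 3 to 1233 in WD tumour 2. Endothelial markers stood at 295 CPM in mature nuclei of RD no tumour 1, below the 712 of its other barcodes, where barring had removed barcodes with Stab2 from the members. T and NK cell genes stood at 196 CPM in mature nuclei of the other 6 libraries pooled, against 67.2 in other barcodes. In RD no tumour 1 they were lower in mature nuclei, at 77.2 against 117 CPM. The highest level was in WD tumour 3, at 933 CPM from 13 UMIs against 62.2. B cell genes stood at 198 against 133 CPM in the 6 libraries and at 195 against 183 in RD no tumour 1. Eosinophil markers had 4 UMIs in the mature nuclei of RD no tumour 1 and none in those of the other libraries. The part of these other cell types in the levels above was not tested.

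No test of genes between groups was made within either class. It required 2 mice per group with at least 20 members, and among the WD tumour mice WD tumour 2 alone had so many, with 33 mature nuclei and 32 progenitors. The values by mouse above are the whole of that comparison.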

How the data were processed

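Nuclei of 8 livers were profiled with 10x 3' v3.1 libraries, per the labels' protocols. The authors deposited raw UMI counts per gene and barcode for each mouse. Per the file headers, Cell Ranger 7.0.0 made them, on build mm10 per the submitters' processing notes. Intron counting and the calling of barcodes are not given in the sources used here. Each file lists 32285 features and no cell annotation.

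Members were found from the counts by the stated rule, and levels are summed UMIs per 1000000 UMIs of the set (CPM). Intervals are exact (95%). Doublets were called with Scrublet in Scanpy 1.11.5, expecting 0.8% per 1000 barcodes, and kept: 72 mature nuclei and 34 progenitors were called. Shares were compared as log2 of the percent with 0.5 added to the count, by exact permutation over mice, which are the replicates. Python 3.11.15, NumPy 2.4.6, SciPy 1.17.1 and pandas 2.3.3 were used, and scripts were tested on simulated data. Named genes are the panel genes with at least 10 UMIs in members, and the 20 genes with the largest pooled CPM ratio among those with 20 UMIs from 3 mice. Members, panels and marker lists were chosen with earlier results of these data known. The symbols Mx1, BC100530 and Gm5483 matched no feature. Alternatives were other gene, UMI, depth and denominator settings, doublets removed, and each mouse left out.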

Additional observations from a re-analysis of the deposited data

Results flagged for a closer look

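In RD tumour 1, the library of exactly 20000 barcodes that entered no comparison, the mature criterion was met by 35.75% of barcodes (7150) and the progenitor criterion by 55 barcodes. It is listed because the share lies above that of every library used. Among its barred barcodes the mature criterion was met by 50.9%, and at 500 UMIs by 3.39% of barred barcodes and 5.28% of those not barred. These barcodes have no part in the values above.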

How the results depend on the processing

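The log2 difference in the mature share, WD tumour minus RD no tumour, kept its direction under all 15 alternatives, with exact permutation p from 0.1 (thinned to 500 UMIs, -2.22) to 0.8. It ran from -2.68 to -0.18 when mice were left out in turn, the last without RD no tumour 1. The progenitor difference of 0.78 changed sign under the stricter thresholds (-0.42), without RD no tumour 3 (-1.28) and without WD tumour 2 (-0.047), and ran from -1.28 to 3.36 when mice were left out, with p from 0.2 to 1.0 over its 15 alternatives. The cause was not tested. With the replicate number as a block, the differences were again -1.81 and 0.78, with exact permutation p of 0.5 and 1.0. The numbers only name mice and do not pair them. The block, the count with evidence beyond the rule and the count with barred barcodes kept were chosen after seeing the data. The gene tests and all their alternatives were not run, since none of the settings planned for them gives 2 WD tumour mice with 20 members. With barred barcodes kept, an alternative of the shares, the 3 WD tumour mice have 21, 57 and 22 mature barcodes, but these include the barcodes that the rule bars, and no gene test was run on them. Depth limits most levels outside RD no tumour 1, where members carried few UMIs per gene.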

Other observations

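In RD no tumour 2, 1 of the 2 progenitors, both called doublets, carried 28 UMIs of the mast cell and basophil marker list. No other member reached this number (at most 2 elsewhere). It was singled out after its values were seen. One non-member barcode, in RD no tumour 3, carried at least 5 UMIs of the list.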
